A study of Mus musculus with 33 samples.

Results

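RAW264.7, a line of mouse cells that resemble macrophages, was given lipopolysaccharide (LPS) together with a peony glycoside, and its response was measured on 18 arrays and set against 3 vehicle arrays, 21 of the 33 arrays of the series. The members were taken by their titles: LPS with albiflorin at 1, 10 or 100 µg/ml, LPS with paeoniflorin at 1, 10 or 100 µg/ml, and vehicle, with 3 arrays in each of the 7 groups. Every glycoside group also carried LPS at 1 µg/ml, and vehicle cells received 0.1% DMSO without LPS, all for 6 h. The difference from vehicle is therefore the joint effect of LPS and a glycoside, and the arrays of LPS alone were not used for it. The study's design text describes the replicates as biological, and all arrays come from 1 cell line.

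LPS is a component of the outer membrane of Gram-negative bacteria that macrophages sense through Toll-like receptor 4. The receptor signals through one branch that activates NF-kB and AP-1 and induces inflammatory genes, and through another that induces type I interferon, which in turn induces interferon-stimulated genes. Albiflorin and paeoniflorin are isomeric monoterpene glycosides of peony root; albiflorin holds a lactone and paeoniflorin a hemiketal-acetal cage. Ifi202b encodes an interferon-inducible DNA-binding protein of the p200 family, Nlrp3 the sensor of an inflammasome, and Bcl2a1b an anti-apoptotic member of the Bcl-2 family.

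The arrays had 1 colour, a chemiluminescent signal from RNA carrying a digoxigenin label. The median signal of an array ran from 336 to 1440 before normalization, and 38.2% to 49.7% of the probes were detected, that is, had a signal over noise of at least 3. Paeoniflorin 10 µg/ml replicate 1 stood apart: it had the lowest share detected, and its median rank correlation with the other 20 arrays was 0.809, against 0.876 to 0.914 for the rest. Its part in each count was therefore measured by leaving it out. Levels are normalized log2 signals, and their precision is limited by the 3 arrays of each group. Of 33012 gene probes, 18177 were tested and 316 could be matched to a gene symbol, so gene names cover a small share of the array; 171 named probes for 168 genes were tested. Of the 10 macrophage markers listed, 1 (Cebpb) had a named probe, and none of 23 markers of other cell types did, so the cell type could not be checked beyond it.

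Over all 6 glycoside groups, Ifi202b, Csprs and Trim34a had the largest rises among named genes. All are on the list of interferon-stimulated genes, which was drawn up with earlier results of these data known. Genes of inflammasome and survival pathways, Nlrp3 and Bcl2a1b, rose as well, and the histone gene H2bc18 and the translational repressor gene Nanos1 fell. Of 18177 probes, 4612 were called at an adjusted p below 0.05 (limma, Benjamini-Hochberg), which is 25.4% of those tested. Higher calls numbered 1802 (9.91%) and lower calls 2810 (15.5%), while in the authors' processed table the same test gave 2268 higher and 2234 lower. The largest changes were mostly rises: 182 probes rose at least 8-fold and 9 fell by as much, and the median log2 difference of all probes was -0.06. Without paeoniflorin 10 µg/ml replicate 1 the count of calls was 5684.

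The groups did not overlap for a further count of probes: on 1027 probes (5.65% of those tested) all 18 glycoside arrays lay above all 3 vehicle arrays, and on 1447 (7.96%) all lay below them. Without paeoniflorin 10 µg/ml replicate 1 these counts were 1278 and 1941. That array was the lowest of the 18 for 464 of the 1802 probes that rose, and the highest of the 18 for 1066 of the 2810 that fell. Replicate number matched the scan day in the file headers, so each glycoside array has a vehicle array of its own day. On 1323 of the 1802 probes called higher and 2075 of the 2810 called lower, all 18 glycoside arrays lay on the same side of the vehicle array of their day; over all tested probes these counts were 1385 above and 2392 below.

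Ifi202b lay between 19.57 and 20.46 with a median of 19.95 on the 18 glycoside arrays, against 15.26, 15.81 and 15.03 on the vehicle arrays. No glycoside array came near a vehicle array. The log2 difference was 4.62 ± 0.17 (SE), or 24.6-fold (limma adjusted p = 7.33e-11), and 4.59 ± 0.16 without paeoniflorin 10 µg/ml replicate 1. It was 4.58, 4.37 and 4.92 within scan days 1, 2 and 3. Ifi202b has closely related neighbours in its family, and which of them its probe also reads was not tested.

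By group, the Ifi202b difference was 4.82 at 1, 4.65 at 10 and 4.56 at 100 µg/ml albiflorin, and 4.57 at 1, 4.59 at 10 and 4.54 at 100 µg/ml paeoniflorin, each ± 0.22 (SE, n = 3 arrays). All 6 passed the test, with limma adjusted p-values between 1.58e-09 and 4.30e-09. The SD between replicates of 1 group ran from 0.0416 at paeoniflorin 10 µg/ml to 0.36 at paeoniflorin 1 µg/ml, and the group means lay between 19.90 and 20.18. The albiflorin 1 µg/ml arrays read 20.46, 20.26 and 19.83, and the paeoniflorin 100 µg/ml arrays 19.73, 19.86 and 20.12.

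Bcl2a1b lay between 19.81 and 20.40 with a median of 20.14 on the glycoside arrays, against 18.01, 17.65 and 18.10 on the vehicle arrays. All glycoside arrays were above all vehicle arrays. The log2 difference was 2.20 ± 0.09 (SE), or 4.61-fold (limma adjusted p = 2.47e-10), and 2.20 ± 0.09 without paeoniflorin 10 µg/ml replicate 1. Mouse Bcl2a1 exists in near-identical copies, which a probe of this kind may read together. By group the difference ran from 2.04 at albiflorin 100 µg/ml to 2.34 at paeoniflorin 100 µg/ml, all called.

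Nlrp3 had a dimmer probe and wider spread. It lay between 9.49 and 12.22 with a median of 11.33 on the glycoside arrays, against 8.99, 9.80 and 10.32 on the vehicle arrays. The groups overlapped through 1 array: paeoniflorin 10 µg/ml replicate 1 was the lowest at 9.49, and the lowest of the other 17 was 10.51. The difference was 1.56 ± 0.35 (SE), or 2.95-fold (limma adjusted p = 0.00444), and 1.63 ± 0.34 without that array (adjusted p = 0.00249). All 18 glycoside arrays lay above the vehicle array of their day, and the differences within days 1, 2 and 3 were 1.97, 1.51 and 1.19.

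In single groups Nlrp3 was higher by 1.94 at 1, 1.74 at 10 and 1.64 at 100 µg/ml albiflorin and by 1.73 at 1 and 1.56 at 100 µg/ml paeoniflorin, each ± 0.46 (SE, n = 3 arrays), with limma adjusted p-values from 0.00807 to 0.0364. At 10 µg/ml paeoniflorin the arrays read 9.49, 10.51 and 11.38, and the difference of 0.76 did not pass (adjusted p = 0.309; 1.12 and 0.176 without its replicate 1). The pooled call held in each of 30 alternatives, with an adjusted p of at most 0.0486, whereas single-group calls were lost when 1 array was left out. The call at albiflorin 1 µg/ml was lost without its replicate 1 (1.38, adjusted p = 0.0533). Leaving out vehicle replicate 1 or 2 ended the calls at albiflorin 10 and 100 µg/ml and at paeoniflorin 1 and 100 µg/ml. So did leaving out albiflorin 10 µg/ml replicate 1 or 2, albiflorin 100 µg/ml replicate 2 or 3, paeoniflorin 1 µg/ml replicate 2 or 3 and paeoniflorin 100 µg/ml replicate 1 or 3 for the group they belong to, and vehicle replicate 3 for paeoniflorin 100 µg/ml. Over these omissions the difference stayed between 1.35 and 1.77, with adjusted p-values from 0.0506 to 0.148. At paeoniflorin 100 µg/ml the call was also lost without the replicate block (adjusted p = 0.0599), under median normalization (0.0533) and without the detection filter (0.0642). Over the 3 paeoniflorin doses together the call was lost without vehicle replicate 1 (1.14, adjusted p = 0.123) or 2 (1.37, adjusted p = 0.0709).

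**Figure D1:**
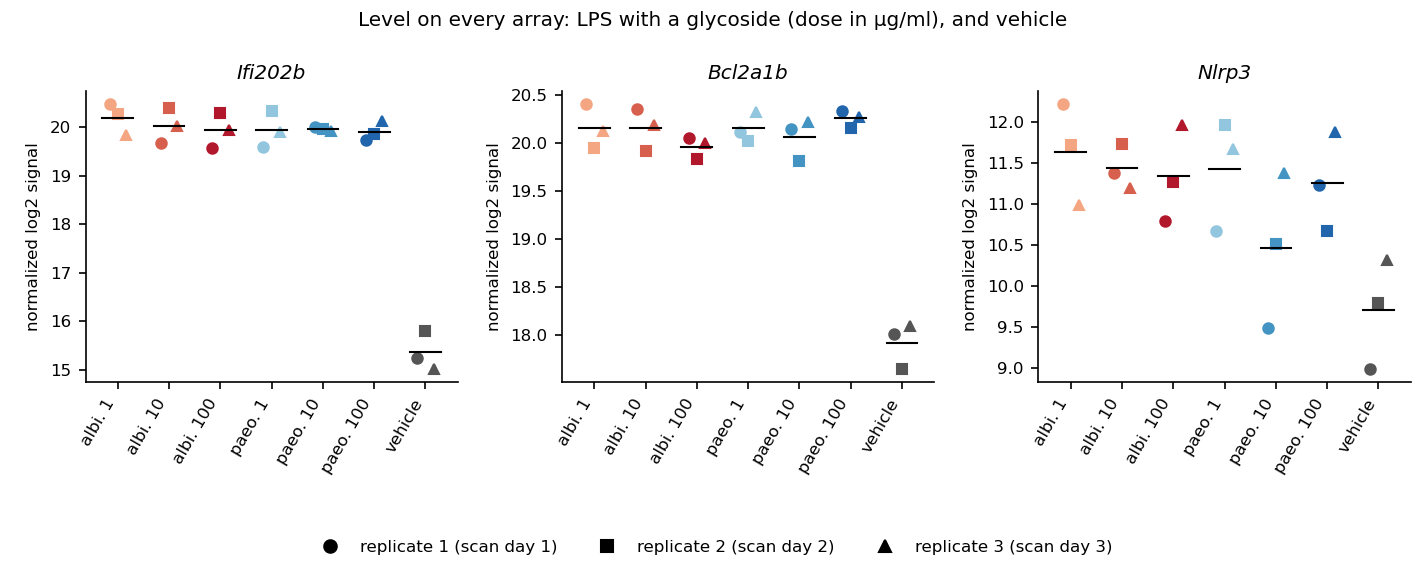
Normalized log2 signal of Ifi202b, Bcl2a1b and Nlrp3 on each of the 21 arrays, by group, with replicates as symbols and the group mean as a bar; each panel has its own scale, which does not start at 0. The glycoside arrays lie between 19.57 and 20.46 for Ifi202b and between 19.81 and 20.40 for Bcl2a1b, above all vehicle arrays, and for Nlrp3 paeoniflorin 10 µg/ml replicate 1 falls among the vehicle arrays.

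Promoter windows are shown for Ifi202b, which had the largest rise among named genes, and for Bcl2a1b and Trim34a. These 2 are the genes among the 15 risen and 10 fallen named below whose window held a searched motif. Trim34a was added after its window was seen. The sequences are RefSeq's for GRCm38.p6, from 250 bases before the gene's start to 50 after it, and motif matches are in capitals. The motifs were searched on both strands: kappa B (GGG and TTCC with 3 free bases between), the interferon-stimulated response element (TTTC and TTTC with 2 free bases between) and AP-1 (TGANTCA).
Ifi202b (chr1:173982795-173983094, minus strand): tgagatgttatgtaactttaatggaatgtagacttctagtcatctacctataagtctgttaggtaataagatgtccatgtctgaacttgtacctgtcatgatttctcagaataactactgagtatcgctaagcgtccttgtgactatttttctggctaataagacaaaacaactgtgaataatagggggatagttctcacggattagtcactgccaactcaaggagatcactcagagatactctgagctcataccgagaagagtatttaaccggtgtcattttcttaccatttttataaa
Bcl2a1b (chr9:89199023-89199322, plus strand): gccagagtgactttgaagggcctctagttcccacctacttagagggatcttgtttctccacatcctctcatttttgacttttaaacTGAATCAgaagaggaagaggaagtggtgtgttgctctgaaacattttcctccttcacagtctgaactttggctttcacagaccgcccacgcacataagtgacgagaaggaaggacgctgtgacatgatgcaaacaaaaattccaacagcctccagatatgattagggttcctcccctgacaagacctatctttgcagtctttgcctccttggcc
Trim34a (chr7:104244207-104244506, plus strand): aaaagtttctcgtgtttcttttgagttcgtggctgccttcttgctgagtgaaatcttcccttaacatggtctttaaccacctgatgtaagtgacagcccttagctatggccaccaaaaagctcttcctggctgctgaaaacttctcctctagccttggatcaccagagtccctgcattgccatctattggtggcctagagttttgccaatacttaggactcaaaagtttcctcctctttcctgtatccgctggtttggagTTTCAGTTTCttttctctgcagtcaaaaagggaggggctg
The Bcl2a1b window holds an AP-1 match 164 bases before the gene's start, and the Trim34a window holds a response element match that begins 10 bases after it. Neither the Ifi202b window nor the 2 windows of Nlrp3 hold any of these motifs. Over all 32851 promoter windows of the table searched, AP-1 occurs in 7.81%, the response element in 3.44% and kappa B in 5.56%. Among the 15 risen and 10 fallen genes named below, 11 and 9 had a window, and no other match was found in them.

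Interferon-stimulated genes were the list with the most named probes, 5 of its 45 members, and all 5 were called higher, beside 9.91% of all probes. The median log2 difference of the 5 was 3.81, beside -0.06 over all probes. The list was drawn up with earlier results of these data known, so these values describe its named members and are no test of it. Csprs lay between 16.44 and 17.26 on the glycoside arrays with a median of 16.67, against 13.07, 12.55 and 11.91 on the vehicle arrays. The groups lay far apart, and the difference was 4.22 ± 0.17 (SE), or 18.6-fold (limma adjusted p = 2.66e-10). Csprs is a multicopy gene, and its copies were not told apart.

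Trim34a, an interferon-induced tripartite motif protein, lay between 12.65 and 14.35 with a median of 13.76 on the glycoside arrays, against 9.04, 10.76 and 9.94 on the vehicle arrays. It was detected on all 18 glycoside arrays and on 1 of the 3 vehicle arrays, and paeoniflorin 10 µg/ml replicate 1 was its lowest glycoside array. The difference was 3.81 ± 0.25 (SE; limma adjusted p = 4.66e-08). C130026I21Rik lay between 18.06 and 19.02 with a median of 18.48, against 16.05, 15.81 and 15.65 in vehicle, with no overlap and a difference of 2.68 ± 0.16 (SE; adjusted p = 1.05e-08, limma). H2-Q7, a non-classical class I histocompatibility gene, moved least: 18.70 to 19.70 with a median of 19.49, against 18.89, 18.98 and 18.79, a difference of 0.57 ± 0.13 (SE; limma adjusted p = 0.0037). Its lowest glycoside array, paeoniflorin 10 µg/ml replicate 1, lay below the vehicle arrays and the other 17 above them. Without that array the H2-Q7 difference was 0.61 ± 0.09 (SE, limma adjusted p = 1.01e-04).

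Among pattern recognition and inflammasome genes, 3 of 31 members had a named probe, and 2 of these, Nlrp3 and Wdfy1, were called higher, beside 9.91% of all probes. This list was also drawn up with earlier results of these data known, so the count is no test of it. Wdfy1, an adaptor-like protein of Toll-like receptor 3 and 4 signalling, lay between 10.15 and 13.95 with a median of 13.10 on the glycoside arrays, against 11.78, 12.17 and 11.51 on the vehicle arrays. Paeoniflorin 10 µg/ml replicate 1 was the lowest, below vehicle, and the next lowest array was 12.37. The difference was 1.24 ± 0.42 (SE; limma adjusted p = 0.0425) and 1.40 ± 0.22 without that array (adjusted p = 3.00e-04). The call was lost in 12 of the 21 omissions of a single array, with adjusted p-values from 0.0504 to 0.207: each vehicle array, each albiflorin 10 µg/ml array, albiflorin 100 µg/ml replicates 1 and 3, paeoniflorin 1 µg/ml replicates 2 and 3 and paeoniflorin 100 µg/ml replicates 1 and 3. It was also lost without the replicate block (adjusted p = 0.0657), under median normalization (0.0931) and without the detection filter (0.0703). Tlr7, the receptor for single-stranded RNA, had a difference of 0.45 ± 0.23 (SE) that did not pass (limma adjusted p = 0.179); its arrays lay between 13.38 and 15.53, against 14.02, 14.26 and 14.21 in vehicle.

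Of the 18 transcription factors on the immediate early list, 2 had a named probe, and both were called higher, beside 9.91% of all probes. Here too earlier results of these data were known when the list was drawn up, so the count is no test of it. Cebpb, a factor of myeloid and acute-phase genes, lay between 19.40 and 20.43 with a median of 19.98, against 18.89, 19.04 and 19.32 in vehicle, without overlap. The difference was 0.91 ± 0.15 (SE; limma adjusted p = 5.09e-04). A dimmer second probe of Cebpb gave 1.04 ± 0.60 (limma adjusted p = 0.248); paeoniflorin 10 µg/ml replicate 1 read 10.54 there and the other 17 glycoside arrays at least 14.44, and without that array it gave 1.28 ± 0.26 (adjusted p = 0.00186). Jun, a subunit of AP-1, lay between 14.63 and 15.13 with a median of 14.96, against 14.54, 14.39 and 14.62, a difference of 0.42 ± 0.10 (SE; limma adjusted p = 0.00734), which was lost without vehicle replicate 2 (0.30, adjusted p = 0.102) and under median normalization (0.35, adjusted p = 0.127).

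The remaining lists had few named probes. Tnfsf13, the ligand APRIL of B cells and plasma cells and the 1 named member of 40 on the NF-kB and cytokine list, fell: it lay between 12.06 and 13.13 with a median of 12.48, against 13.27, 13.16 and 13.26 in vehicle, a difference of -0.72 ± 0.11 (SE; limma adjusted p = 2.94e-04). All 18 glycoside arrays were below all vehicle arrays. Of 15 antioxidant genes the 1 with a named probe was not tested because it was not detected on enough arrays. Over all 7 lists 14 of 193 members had a named probe and 13 were tested: 10 were called higher, 2 lower and 1 neither, beside 9.91% higher and 15.5% lower over all probes. All 7 lists were drawn up with earlier results of these data known, so these counts describe their named members and are no test.

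The other genes with large rises came from no list. Shbg, the carrier of sex steroids in plasma, was detected on all 18 glycoside arrays and on none of the vehicle arrays. It lay between 11.22 and 12.38 with a median of 12.04, against 8.47, 8.23 and 8.52. The log2 difference was 3.53 ± 0.16 (SE), or at least 11.6-fold (limma adjusted p = 7.82e-10). Amigo3, a leucine-rich repeat membrane protein, lay between 9.79 and 12.97 with a median of 12.21, against 9.94, 10.49 and 10.18 in vehicle. Paeoniflorin 10 µg/ml replicate 1 was again the lowest and the only 1 below vehicle, and the difference was 1.98 ± 0.35 (SE; limma adjusted p = 7.35e-04), or 2.10 ± 0.23 without that array.

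Stat5a, a cytokine-activated transcription factor, was higher by 1.17 ± 0.33 (SE; limma adjusted p = 0.0155). Its call was lost without vehicle replicate 2 (1.13, adjusted p = 0.0818) or 3 (1.04, adjusted p = 0.106) and under median normalization (1.09, adjusted p = 0.0638). Grap, an adaptor related to GRB2, was higher by 1.10 ± 0.37 (SE; limma adjusted p = 0.0435), and no single group passed for it. Its call was lost in 13 single-array omissions (adjusted p-values 0.0524 to 0.201): each vehicle array, albiflorin 1 µg/ml replicates 1 and 2, albiflorin 10 µg/ml replicate 1, albiflorin 100 µg/ml replicates 1 and 3, each paeoniflorin 1 µg/ml array and paeoniflorin 100 µg/ml replicates 1 and 3. It was also lost without the replicate block (adjusted p = 0.0645), under median normalization (0.139) and without the detection filter (0.0725). For both genes paeoniflorin 10 µg/ml replicate 1 was the lowest array and the only 1 below vehicle. Without that array Stat5a was higher by 1.26 ± 0.26 (SE, limma adjusted p = 0.00249) and Grap by 1.24 ± 0.19 (limma adjusted p = 2.33e-04).

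Smaller rises followed. Sowahc was higher by 1.01 ± 0.20 and 2700081O15Rik by 0.83 ± 0.13 (SE), called in all 6 groups (limma adjusted p = 0.00187 and 2.17e-04 over all groups). All 18 glycoside arrays lay above all vehicle arrays for both. Smcr8, a partner of C9orf72 in autophagy, was higher by 0.67 ± 0.15 (SE; adjusted p = 0.00509), and lost the call without vehicle replicate 1 or 3 (0.56 in each case, limma adjusted p = 0.0583 and 0.0606). Of the 15 risen genes named here, 9 were called in all 6 groups and 9 had all 18 glycoside arrays above all vehicle arrays. For 6 of the 15, paeoniflorin 10 µg/ml replicate 1 was the lowest of the 18. Without that array all 15 kept the call, from 4.59 for Ifi202b to 0.67 for Smcr8, and 9 had a larger difference. Csprs then had 4.19 ± 0.17, Trim34a 3.86 ± 0.25, C130026I21Rik 2.67 ± 0.16 and Shbg 3.55 ± 0.16 (SE). Among all probes called higher, 56.55% had all 18 above all vehicle arrays and 25.75% had that array lowest. The 15 were chosen for large called rises, and the share of all probes called in all 6 groups was not counted.

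Among genes that fell, C130050O18Rik had the largest change. It lay between 11.89 and 14.13 with a median of 13.28 on the glycoside arrays, against 16.41, 15.99 and 16.67 on the vehicle arrays, and was detected on 9 of the 18 glycoside arrays. The groups did not overlap, and the difference was -3.23 ± 0.28 (SE; limma adjusted p = 7.59e-07). On no array of albiflorin 1 µg/ml or paeoniflorin 10 µg/ml was it detected, where it was at least 17.5-fold and 9.135-fold lower. These bounds refer to detection and leave out the error between arrays.

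Nanos1, which encodes an RNA-binding translational repressor, lay between 8.40 and 10.76 with a median of 9.83, against 12.24, 12.48 and 12.35 in vehicle. It was detected on 9 of the 18 glycoside arrays, and the difference was -2.59 ± 0.26 (SE; limma adjusted p = 3.72e-06). In albiflorin 100 µg/ml it was detected on no array and was at least 10.97-fold lower, again leaving out the error between arrays. H2bc18, an H2B histone gene and the 1 named member of 27 on the cell cycle and histone list, lay between 11.42 and 13.29 with a median of 12.13, against 14.76, 13.86 and 14.33 in vehicle. It was detected on 3 of the 18 glycoside arrays, and the difference was -2.16 ± 0.18 (SE; limma adjusted p = 6.03e-07). Frat2, a binding partner of the kinase GSK-3, was detected on none of the glycoside arrays. It lay between 7.55 and 9.27 with a median of 8.36, against 9.64, 9.54 and 10.72 in vehicle, and was at least 2.997-fold lower (limma adjusted p = 0.00139); 1 array gave no value for it.

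Tbc1d16, a GTPase-activating protein of Rab proteins, lay between 14.57 and 15.55 with a median of 15.40, against 17.03, 16.07 and 16.46 in vehicle, and Flcn, the folliculin of amino acid signalling, between 14.25 and 15.80 with a median of 14.95, against 15.93, 16.16 and 16.47. Both were called in all 6 groups, with differences of -1.30 ± 0.18 and -1.18 ± 0.23 (SE; limma adjusted p = 6.38e-05 and 0.00143). Vars2, a mitochondrial valyl-tRNA synthetase, was lower by 1.18 ± 0.26 (SE; limma adjusted p = 0.00403), and this was lost without vehicle replicate 2 (-0.86, adjusted p = 0.0651). Mblac1 had a difference of -1.13 ± 0.21 (SE; adjusted p = 9.77e-04, limma). Chrnb1, the beta subunit of the muscle acetylcholine receptor, lay between 8.09 and 10.64 with a median of 9.83, against 11.18, 10.92 and 11.18 in vehicle, and had -1.60 ± 0.43 (SE; limma adjusted p = 0.0134), lost without vehicle replicate 2 (-1.61, adjusted p = 0.0616) or 3 (-1.49, adjusted p = 0.083). Akap7, an anchor of protein kinase A, had -1.07 ± 0.34 (SE; limma adjusted p = 0.0302), lost without vehicle replicate 1 (-1.07, adjusted p = 0.106), 2 (-0.95, adjusted p = 0.155) or 3 (-1.18, adjusted p = 0.0742), without the replicate block (adjusted p = 0.0848) and without the detection filter (0.0523). Of the 10 fallen genes, 6 were called in all 6 groups and 8 had all 18 glycoside arrays below all vehicle arrays. Among all probes called lower, 48.65% had all 18 below all vehicle arrays. Without paeoniflorin 10 µg/ml replicate 1 all 10 genes kept the call, from -3.18 for C130050O18Rik to -1.15 for Vars2. For 6 of them the difference was then larger in size. The 10 were chosen for large called falls, which favours such separation. How many of all probes were called in all 6 groups was not counted.

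**Figure D2:**
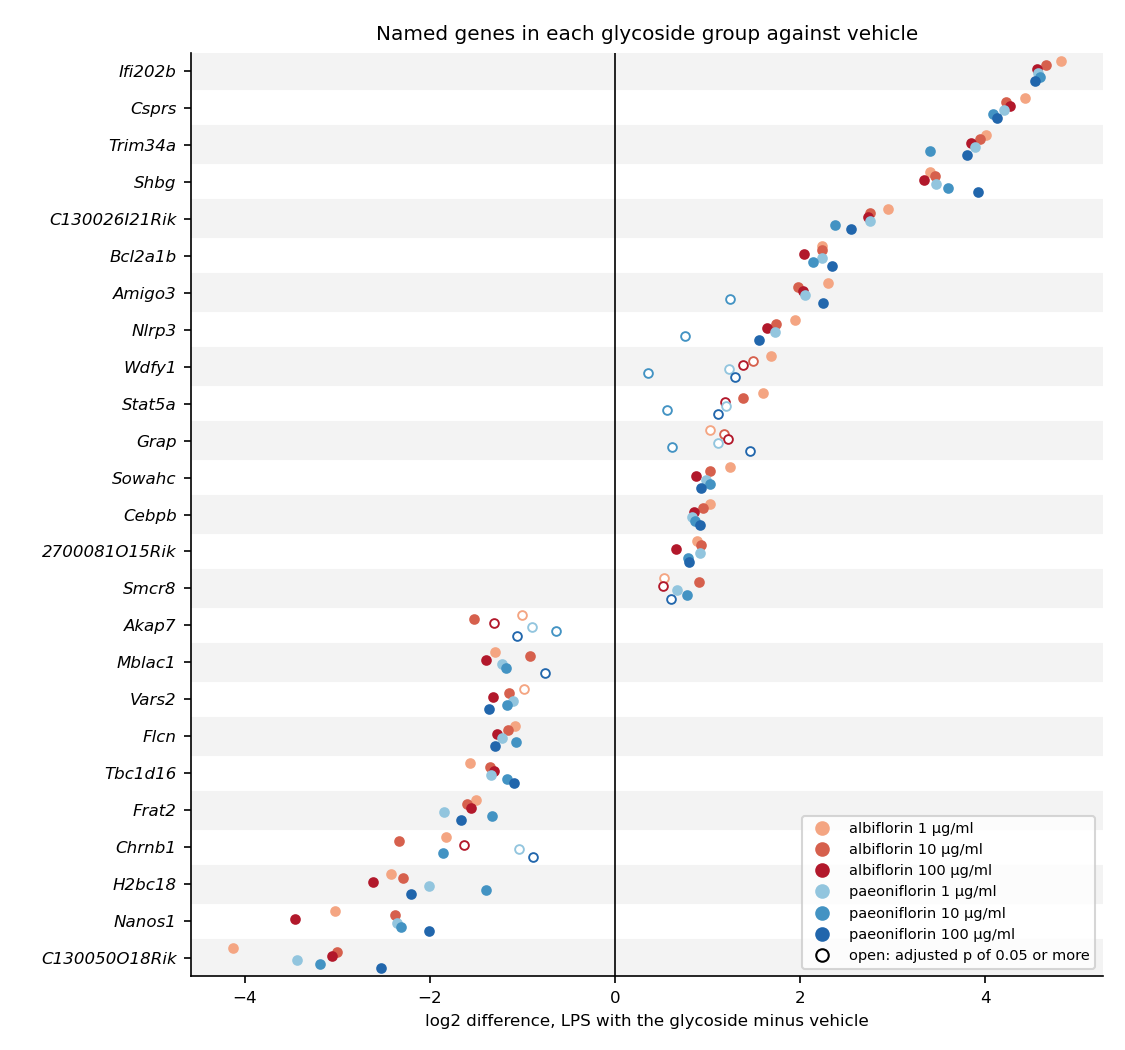
Log2 difference from vehicle of the 25 named genes with the largest changes, 1 point per glycoside group (n = 3 arrays each), filled where the limma adjusted p was below 0.05. The points of Ifi202b lie between 4.54 and 4.82. Paeoniflorin 10 µg/ml is the lowest point for Csprs, Trim34a, C130026I21Rik, Amigo3, Nlrp3, Wdfy1, Stat5a and Grap.

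**Figure D3:**
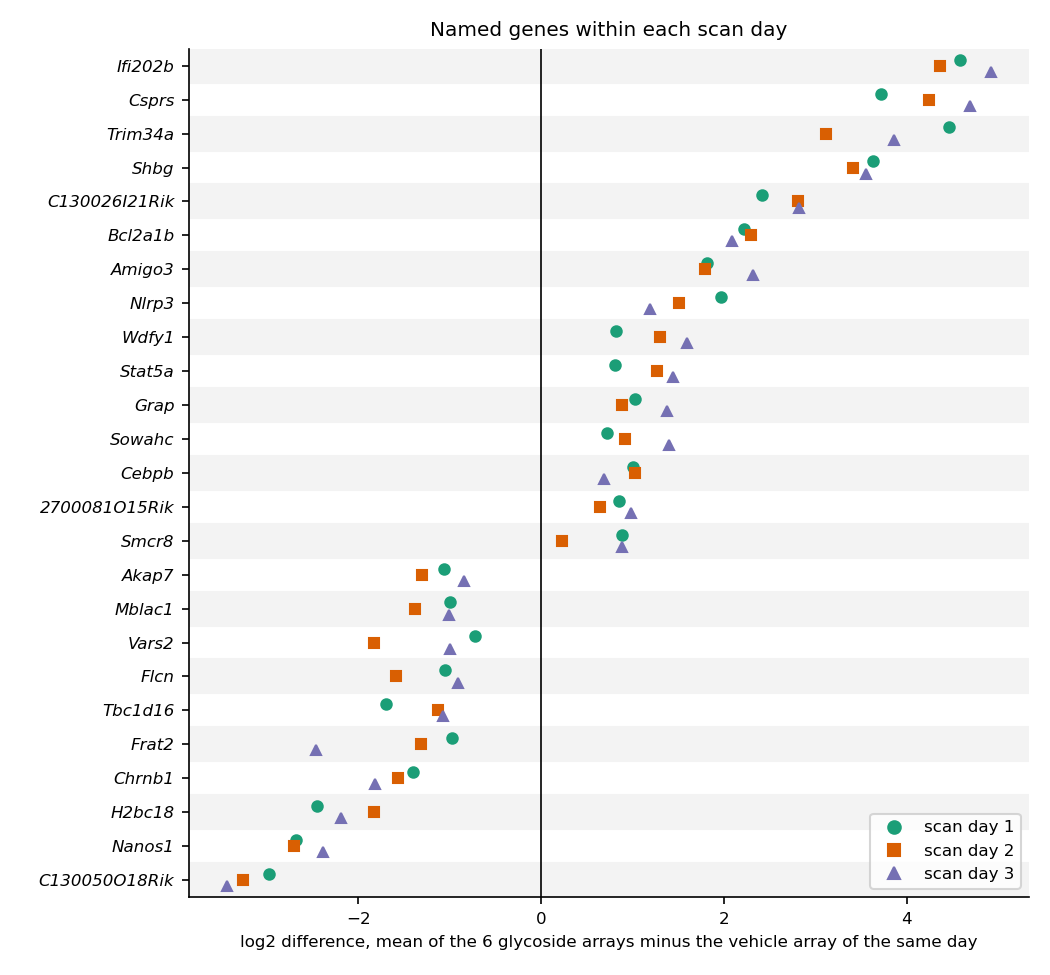
Log2 difference of the same 25 genes within each scan day, the mean of the 6 glycoside arrays of a day minus the vehicle array of that day. All 3 days lie on the same side of 0 for every gene; Smcr8 comes nearest to it at 0.23 on day 2.

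A further 30 named genes were called, 4 higher and 26 lower. The 4 were Jun and H2-Q7, described above, Rraga, a Rag GTPase of amino acid signalling (0.43 ± 0.13), and Srfbp1 (0.50 ± 0.13). The 26 lower differences ran from -1.03 for Trim59 to -0.30 for Cops3, and included -1.01 for Ikbip, which interacts with a kinase of the NF-kB pathway, -0.64 for Crip1 and -0.46 for Lgals1, the galectin 1 gene. Of the 171 named probes 55 were called, 19 higher and 36 lower, beside 25.4% called, 9.91% higher and 15.5% lower over all tested probes.

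Detection on and off gave a smaller set. Of the 33012 gene probes, 48 were detected on all 18 glycoside arrays and on no vehicle array, and for 12 the reverse held. All 48 were called higher, 2.66% of the probes called higher. Of the 12, 10 were called lower, 0.36% of the probes called lower. Without paeoniflorin 10 µg/ml replicate 1 the counts were 60 and 12. Shbg was the 1 named gene of the 48 and Frat2 the 1 of the 12.

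The largest rises belonged to probes without a gene name. Probe mCG128036.1 lay between 19.63 and 20.42 with a median of 19.93 on the glycoside arrays, against 9.31, 7.76 and 7.57 on the vehicle arrays, where it was detected on 1 of 3. Its difference was 11.78 ± 0.29 (SE; limma adjusted p = 2.74e-12). Probe mCG11684.1 lay between 20.51 and 21.50 against 13.22, 12.48 and 12.57, a difference of 8.46 ± 0.19 (SE; limma adjusted p = 1.29e-12). Probe mCG1828.1 lay between 7.39 and 9.48 on the glycoside arrays, against 14.90, 12.87 and 13.56 on the vehicle arrays, and was called lower (limma adjusted p = 3.14e-09). It was detected on 4 of the 18 glycoside arrays, read the floor itself on 4 and lacked a value on 1, so no size is given for its fall. Probe mCG15331.2, detected on 14 of the 18, fell by 3.75 ± 0.35 on the log2 scale (SE; limma adjusted p = 1.84e-06).

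Each glycoside group was also set against vehicle alone. Albiflorin gave 3670 calls at 1 µg/ml (20.2% of probes tested; 1542 higher and 2128 lower), 3085 at 10 µg/ml (17%; 1267 and 1818) and 3665 at 100 µg/ml (20.2%; 1401 and 2264). Paeoniflorin gave 3121 at 1 µg/ml (17.2%; 1378 and 1743), 2823 at 10 µg/ml (15.5%; 1242 and 1581) and 2617 at 100 µg/ml (14.4%; 1255 and 1362). The 6 comparisons share the 3 vehicle arrays, so their counts are not independent. Leaving out 1 array moved some counts by over 1.5 times: albiflorin 10 µg/ml had 1954 calls without its replicate 2, and albiflorin 100 µg/ml had 2359 without its replicate 2. Without paeoniflorin 10 µg/ml replicate 1 the counts were 4654, 3975 and 4652 for albiflorin and 4044, 2627 and 3431 for paeoniflorin, from low to high dose. Ifi202b and Csprs were the named genes with the largest rises in all 6 groups; next came Trim34a in all albiflorin groups and at 1 µg/ml paeoniflorin, or Shbg at 10 and 100 µg/ml paeoniflorin. Taken over its 3 doses, albiflorin gave 4717 calls (26%) and paeoniflorin 3902 (21.5%).

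**Figure D4:**
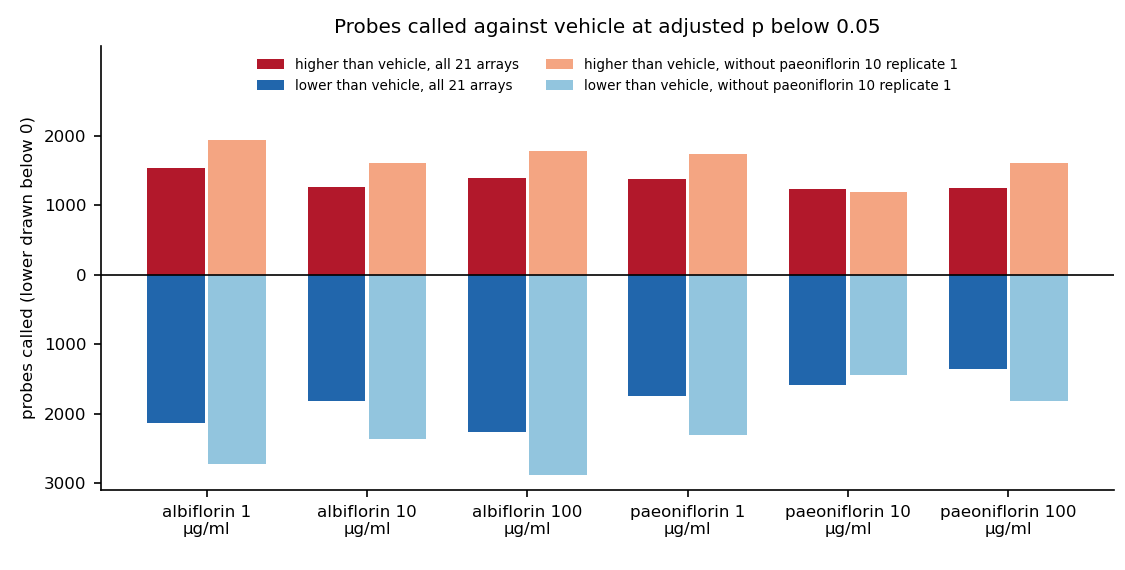
Number of probes called in each glycoside group against vehicle at a limma adjusted p below 0.05, higher drawn above 0 and lower below it, with all 21 arrays and without paeoniflorin 10 µg/ml replicate 1. Leaving that array out raises the count in every group but its own, where 2823 becomes 2627 on 2 arrays.

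Albiflorin and paeoniflorin were compared at each matched dose, 3 pairs in all. No probe was called at 1, 10 or 100 µg/ml (0%, limma), with 346, 1266 and 937 probes at an unadjusted p below 0.05. The test across all 6 groups (714 at an unadjusted p below 0.05) and the test of the 2 compounds over the 3 doses (633) also called 0 probes. Without albiflorin 10 µg/ml replicate 1, 2 probes were called at 10 µg/ml (Olfr993, an olfactory receptor gene, and probe mCG1133.2), and 1, Olfr993, in each of the other 2 tests; without paeoniflorin 10 µg/ml replicate 3, 2 unnamed probes (AK054175.1 and mCG50981.2) were called at 10 µg/ml. The 95% interval of the difference excluded a change of 2-fold or more either way for 60.2% of probes at 1 µg/ml, 54.8% at 10 µg/ml and 57.5% at 100 µg/ml, and excluded 4-fold for 92.6%, 87.9% and 91.9%.

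For Ifi202b the difference of albiflorin minus paeoniflorin was 0.25 at 1 µg/ml (95% interval -0.22 to 0.71), 0.06 at 10 µg/ml (-0.40 to 0.53) and 0.02 at 100 µg/ml (-0.44 to 0.49), with p-values adjusted over the 3 pairs from 0.839 to 0.915 in limma. Bcl2a1b differed by 0.01 (-0.25 to 0.26), 0.10 (-0.15 to 0.35) and -0.30 (-0.55 to -0.05), with adjusted p-values over the 3 pairs of 0.964, 0.636 and 0.0698 from the same limma fit. These intervals excluded a 2-fold difference at each dose for both genes. For Nlrp3 the intervals were wider: 0.21 (-0.79 to 1.21), 0.98 (-0.01 to 1.98) and 0.08 (-0.91 to 1.08), with limma p-values adjusted over the 3 pairs of 0.86, 0.159 and 0.86. At 10 µg/ml the Nlrp3 difference was 0.63 ± 0.51 (SE) without paeoniflorin 10 µg/ml replicate 1.

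**Figure D5:**
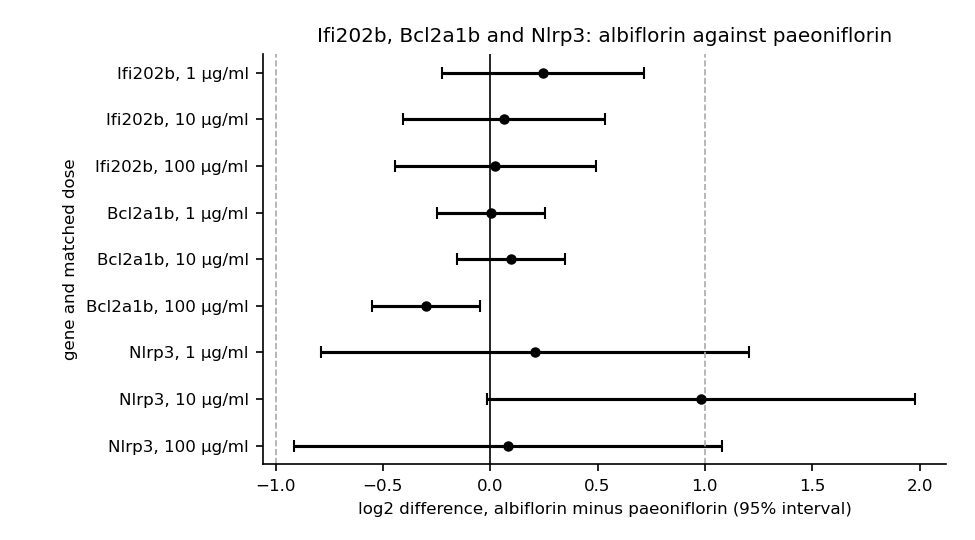
Log2 difference, albiflorin minus paeoniflorin, of Ifi202b, Bcl2a1b and Nlrp3 at matched doses, with 95% intervals (n = 3 arrays per group) and dashed lines at a 2-fold difference. All intervals include 0 except that of Bcl2a1b at 100 µg/ml, -0.55 to -0.05, which did not pass after adjustment over the 3 pairs.

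No named gene passed in these tests, and those with the smallest p-values were as follows. At 1 µg/ml Plin3 was lower under albiflorin by 0.31 ± 0.11, Psme3 by 0.39 ± 0.16 and Tcp10b by 0.89 ± 0.42 (SE; limma adjusted p = 1.00 each). At 10 µg/ml Olfr993, detected on 2 arrays of albiflorin and none of paeoniflorin, measured 5.96-fold higher under albiflorin. Its log2 difference of 2.57 ± 0.60 (SE) did not pass (limma adjusted p = 0.604). H2bc18, detected on no albiflorin and 2 paeoniflorin arrays at that dose, measured 1.86-fold lower under albiflorin and did not pass (limma adjusted p = 0.604). Wwp1 came next, with no fold given because it was detected on no albiflorin array and 1 paeoniflorin array. At 100 µg/ml Nanos1, detected on no albiflorin array and all 3 paeoniflorin arrays, measured 2.73-fold lower under albiflorin. It did not pass (limma adjusted p = 0.892). Snap47 was lower by 0.35 ± 0.12 (SE). Olfr697, detected on no albiflorin array and 1 paeoniflorin array at that dose, measured 2.33-fold lower under albiflorin. Neither passed (adjusted p = 0.892 each, limma). In the test across the 6 groups the smallest p-values were those of H2bc18, Elf4 and Nanos1 (limma adjusted p = 0.859 each), and over the 3 doses those of Nanos1, H2bc18 and Olfr993 (limma adjusted p = 0.872 each).

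Arrays also fell into groups by the signal of 4 control spots, chosen for this check after the data were seen. One group held vehicle replicate 1 and 5 glycoside arrays of scan day 1. Another held vehicle replicates 2 and 3 and 8 glycoside arrays, among them paeoniflorin 10 µg/ml replicate 1 of day 1. The last held 5 glycoside arrays of scan day 2 and no vehicle array. On day 2 only albiflorin 1 µg/ml replicate 2 shared a group with the vehicle array. For the other 5 arrays of that day, the difference from that vehicle array cannot be told apart from control-spot group. Within the first group the difference from vehicle was 4.55 for Ifi202b, 2.24 for Bcl2a1b and 2.27 for Nlrp3, and within the second 4.57, 2.28 and 1.23. With these groups as a further block 4846 probes were called, and 4102 of them were among the 4612.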

How the data were processed

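Each deposited scanner table gives, per the file headers, a linear signal intensity, a signal-over-noise score and a flag for 33012 gene probes and 303 control spots. The authors also deposited log2 values; their normalization and the scanner software are not given in the sources used here. Spots flagged above 5000 were set missing. Signals of the 21 arrays were quantile normalized, floored at the 5th percentile (168) and taken to log2. Probes with signal over noise of at least 3 on 3 or more arrays (18177; 378 with a missing value) were fitted with limma 3.58.1 in R 4.3.3, with group means and replicate number as a block, and Benjamini-Hochberg adjustment over all tested probes; the test was checked on simulated data. Replicate number marks a shared scan day in the file headers (3 of 3). In 17 of 18 pairs, same-numbered vehicle and glycoside arrays deviated together from their group means (correlation over 0.1). The other pair, with paeoniflorin 100 µg/ml on day 2, had -0.22. Over all same-numbered arrays of different groups, glycoside pairs included, the median was 0.27. The median of -0.15 for other numbers is no separate evidence, because deviations of the 3 arrays of a group sum to 0. For a probe undetected in a whole group, an "at least" fold uses its signal there, or the array's lowest detected signal if higher. The lowest detected signal was never higher for the probes named, so these folds equal the measured ones. They refer to detection only and leave out the error between arrays. Arrays without a value were left out, and no fold above the fitted one was used. Between the compounds, where no named gene passed, such folds are given as measured.

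Symbols came from RefSeq accessions (311 of 517 matched) and 5 others. The named genes are the 3 markers, the 15 risen (detected on at least 15 of 18 glycoside arrays) and 10 fallen (detected on all vehicle arrays) genes with the largest called differences, with the markers among the 15, up to 4 members of each list, the leading genes of each comparison and up to 2 unnamed probes each way. Rraga, Srfbp1, Trim59, Cops3, Ikbip, Crip1 and Lgals1 were chosen after their values were seen. A gene's brightest probe stands for it. Markers, members and lists were chosen with earlier results of these data known. In bulk RNA, fewer cells of a kind and less RNA per cell cannot be told apart. Alternatives covered the block, arrays, normalization, floor, filter, the authors' table, an intensity trend and each array left out. The headers give no array batch beyond the scan day, so control-spot groups, chosen after seeing the data, took the place of the planned batch block.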

Additional observations from a re-analysis of the deposited data

Results flagged for a closer look

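The 3 marker probes carried a signal above vehicle on the 12 arrays outside these comparisons, LPS alone (3 arrays) and LPS with paeonol (9 arrays), when all 33 arrays were normalized together. Ifi202b was at 19.39 or more on these 12 arrays, against at most 15.75 on the vehicle arrays. Nlrp3 was at 10.82 or more, against at most 10.26. Bcl2a1b was at 19.75 or more, against at most 18.03. All 12 arrays lay above all 3 vehicle arrays for each gene. The difference between these arrays and the glycoside arrays was not tested here.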

How the results depend on the processing

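Counts of calls against vehicle stayed within 1.5 times of the reported value in 30 alternatives for the 6 groups together (3227 to 5684), for albiflorin (3298 to 5775) and paeoniflorin (2707 to 4758) over 3 doses, and for albiflorin 1 µg/ml and each paeoniflorin dose. Without the replicate block the 6 groups together had 3865 calls, 3854 of them among the 4612. In the pooled comparison the fit without the block ended the calls of Wdfy1, Grap and Akap7 among the 25 named genes, and of no other. Leaving out single arrays gave 1954 to 3975 calls for albiflorin 10 µg/ml and 2359 to 4652 for albiflorin 100 µg/ml. It gave 0 to 2 calls between the compounds at 10 µg/ml, and 0 to 1 in the test across the 6 groups and in the test over the 3 doses. The share of higher calls was 39.1% here, 50.4% in the authors' table and between 38.4% and 41.8% in the other 8 alternatives that kept all arrays. Among 895 pairs of a named gene and an alternative for the pooled comparison, 846 kept direction and call, 47 lost the call, 2 gained it and none changed sign. The cause of the lost calls was not tested. Within the control-spot groups all 58 differences kept their sign.

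Differences between albiflorin and paeoniflorin that lay near 0, none of them called, changed sign under some settings. Under median normalization Ifi202b at 10 µg/ml was -0.06, Bcl2a1b at 1 µg/ml -0.14 and Bcl2a1b at 10 µg/ml -0.13, and in the authors' table Bcl2a1b at 1 µg/ml was -0.07. With single arrays left out, Ifi202b ran from -0.001 to 0.40 at 1 µg/ml, -0.07 to 0.19 at 10 µg/ml and -0.13 to 0.20 at 100 µg/ml. Nlrp3 ran from -0.33 to 0.77 at 1 µg/ml and -0.29 to 0.27 at 100 µg/ml, and Bcl2a1b from -0.08 to 0.07 at 1 µg/ml. The 3 vehicle arrays serve every comparison with vehicle, at most 49.7% of the probes of an array were detected, and dim genes such as Nlrp3 have wide errors.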
